A study of Mus musculus with 9 samples.

Results

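The genes described here were the 27 of 18634 in the count table that encode parts of the synaptic vesicle cycle. They were taken by name, from a list proposed with earlier results of these data known, and all 27 are accounted for. Single cells of brainstem, cortex and hypothalamus were sequenced as 9 libraries, 1 for each region in each of 3 sleep groups, with the tissue of 3 wild-type male C57BL/6J mice aged 9 to 11 weeks pooled in each. Mice of the normal sleep (NS) group slept freely, those of the sleep deprivation (SD) group were kept awake for 12 h from lights on, and those of the recovery sleep (RS) group were kept awake for 12 h and then left to recover, for 24 h by the text of the study and for either 12 h or 24 h by the sample labels. No mouse carried a transgene, and brains were taken at Zeitgeber time 12 in every group. Library 7 was brainstem NS, through the barcodes that the study lists with cell types, whereas the other 8 libraries, numbered by their place in the table, were not matched to a region or sleep group and are given library by library. With 1 library of pooled mice for each region and sleep group there was no replicate and therefore no test. The 95% intervals printed here hold only the error of counting UMIs or cells. They are exact Poisson for levels and for the share of UMIs that the list took, and Clopper-Pearson for shares of cells and within gene pairs.

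Transmitter is stored in synaptic vesicles, which dock at the nerve terminal, fuse with its membrane when calcium enters, and are then recovered by endocytosis and filled again. Fusion is driven by SNARE proteins, timed by the calcium sensor synaptotagmin and by complexins, and recovery is driven by the clathrin coat, its AP2 adaptor and the GTPase dynamin. Membrane fusion by SNARE proteins runs in every cell and its release on a calcium signal is a specialty of neurons and secretory cells, while clathrin-dependent uptake of membrane runs in nearly every cell type.

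The sequences before 4 of the genes are shown because these genes range from strongly neuronal (Syn1, Syp) to widespread (Cltb, Ap2b1) in the levels below, and because they hold 3 of the 4 motifs searched. RefSeq start sites on GRCm38.p6 were held for 23 of the 27 genes, with 33 start windows of 250 bases in all; for Snap25, Vamp2, Bin1 and Ppp3ca no window was held. Each line below is the 250 bases before a start, 5′ to 3′ on the strand of the gene, with capitals marking TTCAGCACC, the left part of the RE1 element bound by the neuronal repressor REST, and TGACGTCA, the cyclic AMP response element (CRE), in Syn1; the CRE in Cltb and Ap2b1; and the GC box GGGCGG in Syp. Syn1 lies on the minus strand at chrX:20920919-20921168, Cltb on the minus strand at chr13:54611374-54611623, Ap2b1 on the plus strand at chr11:83302447-83302696 and Syp on the plus strand at chrX:7638330-7638579.
Syn1: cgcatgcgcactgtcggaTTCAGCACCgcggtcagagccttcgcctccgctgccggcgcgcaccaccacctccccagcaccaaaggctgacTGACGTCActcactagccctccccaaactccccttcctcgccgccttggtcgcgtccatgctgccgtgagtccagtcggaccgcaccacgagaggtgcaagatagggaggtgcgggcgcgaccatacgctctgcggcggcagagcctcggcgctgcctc
Cltb: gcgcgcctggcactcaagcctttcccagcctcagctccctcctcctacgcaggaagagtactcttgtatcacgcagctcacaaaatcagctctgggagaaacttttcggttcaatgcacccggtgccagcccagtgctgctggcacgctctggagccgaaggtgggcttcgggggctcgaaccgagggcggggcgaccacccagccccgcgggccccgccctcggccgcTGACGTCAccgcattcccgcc
Ap2b1: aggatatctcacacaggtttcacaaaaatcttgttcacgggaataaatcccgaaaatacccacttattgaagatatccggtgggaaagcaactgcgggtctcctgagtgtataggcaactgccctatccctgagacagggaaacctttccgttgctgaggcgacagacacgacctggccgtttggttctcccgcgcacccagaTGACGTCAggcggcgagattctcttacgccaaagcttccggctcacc
Syp: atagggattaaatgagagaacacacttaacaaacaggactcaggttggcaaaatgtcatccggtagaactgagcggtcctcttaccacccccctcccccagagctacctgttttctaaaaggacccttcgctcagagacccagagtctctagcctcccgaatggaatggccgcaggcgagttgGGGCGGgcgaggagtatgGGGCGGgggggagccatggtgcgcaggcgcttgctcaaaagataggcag

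Both strands were searched for each motif. In Syn1, which encodes the vesicle-tethering protein synapsin 1, the RE1 letters began 232 bases before the start and the CRE 159 bases before it. Syn1 was the only listed gene with the RE1 letters, in 1 of 33 windows (3.03%), beside 0.301% of all 32851 RefSeq windows. The CRE stood 21 bases before the start of Cltb and 47 bases before that of Ap2b1, and those with Syn1 made 3 of 33 windows, beside 1.55% of all windows. The GC box was held by 15 of the 33 windows (45.5%), beside 32.7% of all windows, and in Syp it began at 67 and at 49 bases before the start. The GC boxes of Cltb were left in lower case. TATAAA was found only before Sv2b, in 2 of the 33 windows (6.06%), beside 12.4% of all windows. The GC content of the listed windows had a median of 58.8%, with a range of 32.8% to 71.6%, and the median of all windows was 52.4%. These matches describe letters only, and no binding was measured.

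The 9 libraries held 2575 to 3916 cells and 1522766 to 5488950 UMIs, with a median of 402 to 1055 UMIs per cell. Pairs of libraries shared 5 to 25 cell barcodes, and 1105 of 29571 cells had a barcode found in more than 1 library. Libraries 4, 5 and 6 stood apart, since Gh, the gene of growth hormone, took 25.3%, 27.9% and 32.1% of their UMIs and at most 0.00755% of those of any other library. Clusters of cells with pituitary markers, and an unnamed cluster led by Gh, held 6267 cells, almost all of them in those 3 libraries. The share of the list, the counts of called genes and the median folds are therefore given with and without these clusters, a step chosen after seeing the data. Levels of the listed genes in positive and other cells and the balance within gene pairs are given without them, followed by the values of libraries 4 to 6 with all cells for a part of the genes.

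Neurons had been defined as cells with 2 or more UMIs of Meg3 and Snhg11 together, and this label did not hold in every library. The rule took 558, 875, 1144, 2517, 1470, 3334, 123, 152 and 183 cells in libraries 1 to 9. In libraries 4, 5 and 6, 1904, 841 and 2903 of those lay in the pituitary-like and Gh-led clusters, where Meg3 was at 4405 to 6044 CPM (UMIs of a gene per 1000000 UMIs) but Snhg11 only at 60.1 to 85.1 CPM and the neuronal tubulin Tubb3 at 8.13 to 18.0 CPM. In library 7 the rule took only 35 of the 139 cells of neuron-like clusters, which are clusters named from fixed neuronal markers. It also passed 4 of the 55 cells that the study lists as glutamatergic neurons, 17 of its 18 other neurons and 16 of its 88 ependymocytes. The cells taken by the rule are therefore called Meg3/Snhg11-positive cells, or positive cells, and the rest other cells.

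The 27 genes took 143732 of 31468255 UMIs, or 0.457%. Per library they took 1.07%, 1.24% and 1.49% of the UMIs in libraries 1, 2 and 3, 0.249%, 0.263% and 0.166% in libraries 4, 5 and 6, and 0.188%, 0.218% and 0.171% in libraries 7, 8 and 9. Libraries 1 to 3 were thus higher than the other 6, with counting intervals that did not touch. Without the pituitary-like and Gh-led clusters the shares of libraries 4, 5 and 6 were 0.439%, 0.430% and 0.336%, which lay between the other sets. Libraries 1 and 2 had the fewest UMIs per cell, with medians of 402 and 406, and the part of depth in this order was not tested.

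**Figure D1:**
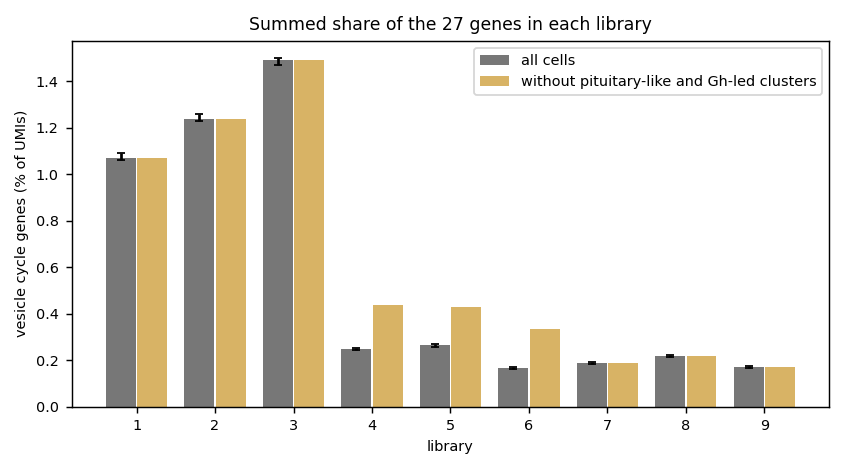
Share of all UMIs that came from the 27 genes (vertical axis, percent) in each of the 9 libraries (horizontal axis). Grey bars are all cells with 95% exact Poisson intervals and ochre bars leave out the pituitary-like and Gh-led clusters. Libraries 1 to 3 lie between 1.07% and 1.49%, and every other bar lies at or below 0.439%.

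Snap25, the SNARE protein of the nerve terminal, gave the most UMIs over all libraries, with 17299. Ppp3ca, the catalytic subunit of the calcium-dependent phosphatase calcineurin, followed with 15143, and Calm3, a calmodulin gene, with 13619, so that these 3 made up 32.0% of the UMIs of the list. This pooled order was that of libraries 1 to 3. In each of libraries 4 to 9 Calm3 had the highest level by point value, at 200 to 319 CPM, and in libraries 7, 8 and 9 Snap25, at 70.6, 96.7 and 74.9 CPM, lay below Clta, Ap2m1 and Cltb. At the other end stood Amph with 693 UMIs and Atp6v0c, the proteolipid of the vesicle proton pump, with 36, which was too few for any comparison. Across whole libraries, Snap25 ranged from 70.6 CPM in library 7 over a median of 205 CPM to 2319 CPM in library 3. Stx1a, the plasma membrane SNARE syntaxin 1A, ranged from 2.61 CPM in library 8 over a median of 7.31 CPM to 316 CPM in library 3. Clta, a clathrin light chain, ranged only from 154 CPM in library 6 over a median of 222 CPM to 296 CPM in library 3. Snap25 and Stx1a thus differed between libraries far more than Clta did.

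Within each library, most genes of fusion and of the vesicle itself were higher in positive cells than in other cells, and, without the pituitary-like and Gh-led clusters, the genes of the clathrin light chains differed less between them. A gene was called where its level plus 10 CPM was at least 2-fold higher in positive cells in all 9 libraries. With all cells kept, 8 of 26 members with at least 200 UMIs were called, beside 0.561% of the 11235 genes tested: Snap25, Syt1, Syn1, Rab3a, Sv2a, Sncb, Nsf and Syp. Without the pituitary-like and Gh-led clusters 14 of 26 were called, beside 3.20% of all genes, with Syn2, Cplx1, Dnm1, Amph, Ppp3ca and Napb added. By role these were 3 of 5 SNARE and recycling genes, 3 of 4 genes of calcium sensing and fusion control, 5 of 7 genes of the vesicle, 2 of 8 genes of endocytosis and 1 of 2 genes of calcium signalling. No member was at least 2-fold lower in all 9 libraries without those clusters, which 0.899% of all genes were. With all cells kept, 5 were called among cells of at least 1000 UMIs, beside 0.303% of all genes, where the lowest folds of Syn1, Rab3a, Sncb and Nsf were 1.5, 1.69, 1.91 and 1.66, and 21 when neuron-like clusters replaced the rule, beside 8.48% of all genes. With a rule of 3 UMIs the lowest folds of Rab3a and Nsf were 1.81 and 1.95, and with cells thinned to 500 UMIs that of Syn1 was 1.70. The median fold of the members was 8.41, 7.24 and 8.21 in libraries 1 to 3, 4.44, 4.85 and 3.38 in libraries 4 to 6 without those clusters, and 3.02, 5.13 and 3.23 in libraries 7 to 9, while the median of all tested genes lay between 0.971 and 1.22. With those clusters kept, the members' medians of libraries 4 to 6 were 2.12, 2.37 and 1.58. The levels and folds of the listed genes that follow by role are without those clusters unless all cells are named, and folds are on the CPM + 10 scale, which understates changes of low genes. Positive cells differed in kind between libraries: 1023 of 1144 lay in neuron-like clusters in library 3, but 35 of 123 in library 7. Their levels are therefore not levels of neurons alone, and the part of this mix in the differences between libraries was not tested.

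Of the SNARE genes, Snap25 showed the clearest difference. In positive cells it stood at 2759.6, 3596, 3472, 671, 664, 308, 623, 684 and 609 CPM in libraries 1 to 9, and in other cells at 119, 228, 166, 18.3, 35.8, 14.1, 34.5, 32.3 and 26.8 CPM. Every positive value lay above every value of other cells, and the fold ran from 13.2 in library 6 to 24.0 in library 4. With all cells kept, Snap25 in positive cells of libraries 4, 5 and 6 was at 275, 279 and 138 CPM, with folds of 5.42, 4.45 and 2.86, so that library 6 lay below the other cells of library 2. Vamp2, the SNARE of the vesicle, was at 121 to 835 CPM in positive cells with a median of 320.4 CPM, and its fold fell below 2 only in library 7, at 1.91. Over all cells the fold of Vamp2 was also below 2 in libraries 4, 5 and 6, at 1.87, 1.52 and 1.47. Stx1a was at 369.5 to 474 CPM in positive cells of libraries 1 to 3 and at 11.7 to 42.7 CPM in the other 6 libraries, with folds of 1.68 to 16. The ATPase Nsf, which takes spent SNARE complexes apart, was 4.96-fold to 10.0-fold higher, and Napb, its adaptor beta-SNAP, 5.66-fold to 16.8-fold higher. Both were called in all 9 libraries.

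Among the genes that time fusion, Syt1, the calcium sensor, was at 179 CPM in positive cells of library 7, 435 CPM at the median and 1646 CPM in library 3, against 7.17 to 144 CPM in other cells. Its fold ran from 4.06 to 25.3. Rab3a, a GTPase of vesicle docking, was 3.79-fold to 11.9-fold higher. The complexins clamp and promote SNARE assembly. Of them, Cplx1 was at 28.0 to 294 CPM in positive cells and was called in 9 libraries, whereas Cplx2 was at 72.1 to 1125 CPM and fell below the 2-fold line in library 9, at 1.37. Over all cells Cplx1 fell below it too, in library 6 at 1.19, and Cplx2 was also below it in libraries 4, 5 and 6, at 1.97, 1.19 and 1.40.

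Of the vesicle genes, Sncb, which encodes beta-synuclein, had a fold of at least 10.4 in every library and of 24.2 in library 4. Over all cells its fold was 5.14, 4.02 and 2.50 in libraries 4, 5 and 6. Syp, the vesicle protein synaptophysin, was at 192 CPM in positive cells of library 9, 446 CPM at the median and 1237 CPM in library 1, with folds of 3.12 to 12.1. Syn1 was 6.67-fold to 13.1-fold higher and Syn2 4.36-fold to 12.6-fold higher, both in 9 libraries. Over all cells the fold of Syn1 was 2.71, 3.49 and 2.11 in libraries 4, 5 and 6, and that of Syn2 was 1.69 in library 6, below the line. Sv2a, the vesicle glycoprotein that binds the antiepileptic drug levetiracetam, was 3.12-fold to 13.4-fold higher. Its paralog Sv2b was at 575 to 614 CPM in positive cells of libraries 1 to 3 but at 11.0 to 64.6 CPM in those of libraries 4 to 9. Syngr1, a synaptophysin relative, passed the 2-fold line in only 5 libraries, and in library 7 it was higher in other cells, with a fold of 0.761.

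Of the 8 endocytosis genes, 2 were called in all 9 libraries without the pituitary-like and Gh-led clusters, and none with all cells kept. Dnm1, the neuronal dynamin that pinches off vesicles, was at 179 to 1034 CPM in positive cells and 7.59-fold to 19.2-fold higher, and Amph, the neuronal amphiphysin that recruits dynamin, was 2.32-fold to 8.0-fold higher. In libraries 6, 7, 8 and 9 the positive cells held only 18, 6, 10 and 13 UMIs of Amph. Over all cells Amph fell below the 2-fold line in libraries 5 and 6, at 1.70 and 1.42, and Dnm1 in library 6, at 1.95. Synj1, a lipid phosphatase that helps to shed the coat, passed the line in 8 libraries. The AP2 subunit genes were less uneven: Ap2m1 passed it in 3 libraries, with folds of 1.38 to 3.6, and Ap2b1 in 4, with folds of 1.07 to 3.39. Clta was at 190.4 to 325 CPM in positive cells and at 178 to 298 CPM in other cells, so the groups overlapped and its fold stayed between 0.856 and 1.33. Cltb behaved alike, at 103 to 212 CPM in positive cells and 108 to 153 CPM in other cells, with folds of 0.692 to 1.53. Bin1, the widely expressed amphiphysin, passed the line in 5 libraries and had a fold of 0.914 in library 7. With all cells kept the fold of Bin1 in library 4 was 0.755 rather than 1.53, and that of Synj1 in library 6 was 0.586 rather than 1.46. Over all cells Ap2m1 had folds of 0.861, 0.991 and 0.868 and Clta of 0.627, 0.719 and 0.687 in libraries 4, 5 and 6. Both were then higher in other cells there by point value. The upper bounds of the ratio of CPM were 1.06, 1.28 and 1.10 for Ap2m1 and 0.724, 0.866 and 0.810 for Clta. For Ap2m1 the direction thus rests on point values.

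Of the calcium genes, Ppp3ca was at 2592 to 2716 CPM in positive cells of libraries 1 to 3 and at 240.4 to 539.8 CPM in those of the other libraries, and its lowest fold was 2.04. Over all cells the fold of Ppp3ca was 1.48, 2.28 and 0.985 in libraries 4, 5 and 6, which ends its call. Calm3 was at 538 CPM in positive cells of library 6 and at 1577 CPM in those of library 3. In library 6 other cells held more of it, at 614 CPM, and its fold there was 0.878. With all cells kept the fold of Calm3 was 0.619, 0.726 and 0.394 in libraries 4, 5 and 6, against 1.39, 1.51 and 0.878 without the clusters. For all 26 tested members the folds of libraries 4, 5 and 6 were lower with all cells than without the clusters. In library 6 those of Syp, Dnm1 and Napb were then 2.56, 1.95 and 1.98, against 11.3, 7.59 and 6.38.

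**Figure D2:**
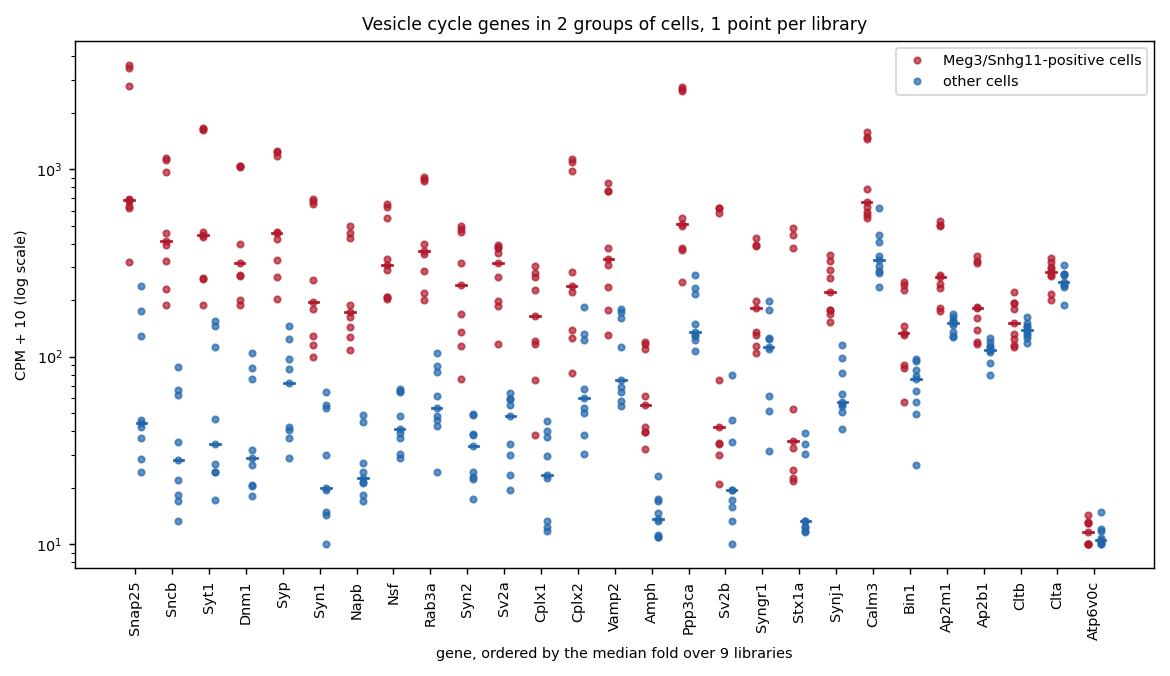
Levels of the 27 genes in Meg3/Snhg11-positive cells (red) and other cells (blue) without the pituitary-like and Gh-led clusters, 1 point per library and a dash at the median, as CPM + 10 on a log axis. Genes run from the highest to the lowest median fold; Snap25 (13.2-fold to 24.0-fold) has no overlap between the colours, while Clta (0.856-fold to 1.33-fold) and Cltb do.

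Part of the RNA in other cells can be free RNA caught in droplets. Cells of the cluster with markers of hemoglobin-expressing vascular cells (HbVC) carried 397, 609, 56.7, 126 and 117 CPM of Snap25 in libraries 1, 2, 7, 8 and 9, where at least 50 such cells were found. The whole list took 0.525% and 0.651% of their UMIs in libraries 1 and 2 and 0.0377% in library 7. In each of these 5 libraries Snap25 was lower in other cells as a whole and higher in positive cells than in HbVC-like cells, and the part of free RNA in other cells was not tested. The HbVC-like cells were not free of positive cells, which made up 13.5%, 19%, 3.52%, 17.9% and 8.57% of them in these libraries, and how far their levels measure free RNA was not tested.

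Of 69 genes of the pathway outside the list 67 had at least 200 UMIs, and 5 of them were called with all cells kept: Syt7, Rab3b, Rph3a, Snap91 and Atp6v1g2. Without the pituitary-like and Gh-led clusters 22 of the 67 were called, against 14 of the 26 listed genes, as were 13 with all cells kept but without library 6, beside 1.70% of all genes, and none was at least 2-fold lower in all 9 libraries in either comparison. Atp6v1g2, a subunit of the proton pump, was at 51.3 to 619.7 CPM in positive cells of the 9 libraries without those clusters and at 4.71 to 65.9 CPM in other cells, with folds of 3.61 to 11.5. Snap91, the clathrin assembly protein AP180, was at 62.3 to 259 CPM against 2.35 to 21.6 CPM, with folds of 4.90 to 12.1, and Syt7, a synaptotagmin of slow release, had folds of 3.05 to 9.39. Rph3a, the Rab3 effector rabphilin, had folds of 4.94 to 14.0. Rab3b, a relative of Rab3a, had folds of 2.00 to 6.95, and in positive cells of libraries 4, 5 and 6 it was at 76.7, 72.0 and 42.8 CPM, or 64.6 to 92.4 CPM with all cells kept. The fold of Rab3b in library 7 lay at the line, from 11.0 CPM in positive cells and 0.479 CPM in other cells. The median fold of these genes without those clusters lay between 1.93 and 3.85 per library, below that of the listed genes in each library.

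In library 7, brainstem NS, the cell types that the study lists were used for the 1999 cells for which the list was held. The study named these types from expression clusters and marker genes, and its methods do not say that the 27 genes were left out. The listed types, including the kinds of neurons, may therefore rest in part on the genes compared here. The 73 listed neurons spent 1.19% of their UMIs on the 27 genes (1.11% to 1.27%), whereas the 1926 other listed cells spent 0.154% (0.149% to 0.160%). Among the other types the share ran from 0.0614% in HbVC to 0.205% in microglia. Of 23 members with at least 20 UMIs in listed cells, 18 were at least 2-fold higher in the neurons, beside 14.4% of all genes tested, and none was 2-fold lower. That minimum counted neurons and other listed cells together, so a gene could pass it mainly through the neurons. Syn1, for one, had 20 UMIs in the neurons and 4 in the other listed cells. The median fold was 12.6 for the members and 0.784 for all genes.

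Syp, Snap25 and Sv2a had the highest levels in the neurons. Syp was at 1917 CPM in the neurons (157 UMIs, 1629 to 2241) and at 13.8 CPM in the other cells. Snap25 was at 1416 CPM (116 UMIs, 1170.4 to 1699) against 18.5 CPM, and Sv2a at 1233 CPM (101 UMIs, 1005 to 1499) against 14.3 CPM. Syt1 was at 843 CPM against 9.69 CPM, and Sncb at 537 CPM against 5.08 CPM. For 15 genes the neurons were the highest type with an interval apart from that of the next type.

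A few members were highest in other types of brainstem NS. Bin1 was at 306 CPM in microglia (155 UMIs, 259 to 358) and at 134 CPM in neurons (11 UMIs, 67.1 to 240.3), with intervals apart. Syngr1 was at 597 CPM in microglia and 525 CPM in neurons, and Clta at 410 CPM in microglia and 244 CPM in neurons. Cltb was at 293 CPM in endothelial cells (253 to 338), 265 CPM in oligodendrocytes (23 UMIs, 168 to 398) and 171 CPM in neurons. Ap2b1, the beta subunit of AP2, was at 174 CPM in endothelial cells and 97.7 CPM in neurons. Ap2m1, its mu subunit, was at 224 CPM in arterial smooth muscle cells (VSMCA) and 159 CPM in neurons. For Syngr1, Clta, Cltb, Ap2b1 and Ap2m1 the interval of the neurons overlapped that of the highest type. By point value, both kinds of neurons merged were thus not the highest type for any of the 4 coat and adaptor genes in this library. The 18 other neurons alone were at 306 CPM for Ap2m1 (9 UMIs, 139.7 to 580.1) and 204 CPM for Ap2b1 (6 UMIs, 74.8 to 443), above those types by point value, and the glutamatergic neurons at 76.3 and 38.1 CPM. For Syngr1 the glutamatergic neurons alone were at 629 CPM (433 to 884), above microglia by point value, and for Bin1 the other neurons alone were at 238 CPM (7 UMIs, 95.6 to 489.8), an interval that overlapped that of microglia.

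Across all libraries, cells were also sorted into 15 classes of at least 50 cells, from clusters that were made without the 27 genes. Of the classes 13 were named by fixed markers, and the other 2, from clusters without a name, are called by their leading genes Gh and Rax. The neuron-like class of 3810 cells spent 1.95% of its UMIs on the list. Of the 27 genes 22 were highest there, beside 34.0% of all tested genes. These levels were summed over libraries, and 599, 864 and 1049 of the neuron-like cells lay in libraries 1, 2 and 3. In the neuron-like class of each library the share of the list was 2.08%, 2.24% and 2.23% in libraries 1 to 3 and between 1.07% and 1.27% in libraries 4 to 9, so libraries 1 to 3 were above the other 6 in this class too. Pituitary endocrine-like cells of libraries 4 to 6 spent 0.195%, 0.122% and 0.146% on it.

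Among these classes, none of which was named oligodendrocyte, the members that peaked outside the neuron-like class did so in immune and vascular cells. Bin1 was at 263 CPM in microglia-like cells and 217 CPM in neuron-like cells, and over 8 libraries its level in microglia-like cells stayed between 205 and 337 CPM. Syngr1 was at 514 CPM in microglia-like and 399 CPM in neuron-like cells, although its ranges over libraries, 224 to 591 CPM and 260.3 to 547 CPM, overlapped. Clta was at 487 CPM in macrophage-like cells and 436 CPM in microglia-like cells, against 304 CPM in neuron-like cells. In the 8 libraries with enough microglia-like cells Clta was at 347 to 533 CPM there, and in neuron-like cells of the 9 libraries it was at 164 to 357 CPM, ranges that just overlapped. Cltb was at 279.7 CPM in endothelial-like cells, with 210.4 to 333 CPM over 9 libraries, and at 188 CPM in neuron-like cells, with 157 to 263 CPM. Atp6v0c, with 3.48 CPM in macrophage-like and 3.10 CPM in neuron-like cells, was near the limit of detection in every class.

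Other members were highest in neuron-like cells but had a clear next class. Calm3 was at 617 CPM in ependymocyte-like (EPC-like) cells, with 554 to 748 CPM over 6 libraries, and at 1398 CPM in neuron-like cells. Synj1 was at 159 CPM in EPC-like cells, with 135 to 201 CPM over 6 libraries, and at 295 CPM in neuron-like cells. Rab3a was at 109 CPM in pericyte-like cells and Vamp2 at 138 CPM in astrocyte-like cells, against 837 CPM and 720.1 CPM in neuron-like cells. Syn2 was at 45.9 CPM in astrocyte-like cells, with 30.6 to 63.2 CPM over 8 libraries, while Syn1 was highest outside neurons in HbVC-like cells, at 30.5 CPM. Snap25 was at 160.1 CPM in pituitary endocrine-like cells, with 122 to 206 CPM over 3 libraries, against 2912 CPM in neuron-like cells. Syt1 was at 99.8 CPM in the Gh-led cluster and 1474 CPM in neuron-like cells. The part of free RNA and of doublets in these levels was not tested.

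**Figure D3:**
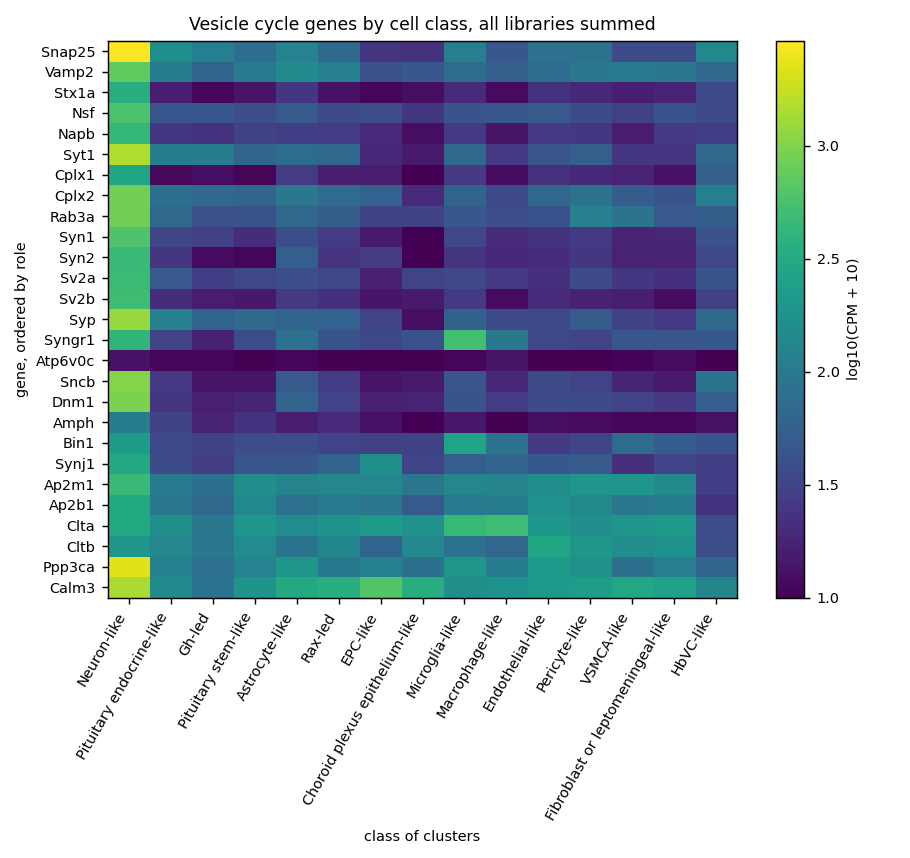
Level of each of the 27 genes (rows, ordered by role) in each class of clusters (columns), all libraries summed, as log10 of CPM + 10 by colour. The neuron-like column is brightest for 22 genes; Bin1 and Syngr1 are brighter in the microglia-like, Clta in the macrophage-like and Cltb in the endothelial-like column.

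Several members are paralogs that share a role, and the balance within a pair does not depend on the total count of a cell. The balance of the clathrin light chains followed cell class. Clta gave 85.5% of the Clta and Cltb UMIs in microglia-like cells (83.4% to 87.3%), 80.3% in EPC-like, 61.8% in neuron-like and 41.4% in endothelial-like cells (38.8% to 44.0%). In brainstem NS by listed types it was 87.8% in microglia and 38.1% in endothelial cells. In positive cells it ran from 56.4% in library 2 to 74.6% in library 8, with a median of 64.3%, and in other cells from 59.5% to 71.1%, so the ranges overlapped.

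The balance of the synaptic vesicle glycoproteins differed most between libraries. Sv2a gave 37.8%, 38.5% and 39.1% of the Sv2a and Sv2b UMIs in positive cells of libraries 1, 2 and 3. It gave 92.7%, 93.4%, 90.5%, 94.1%, 79.8% and 76.8% in those of libraries 4 to 9. The highest upper bound among the first 3 libraries was 41.7% and the lowest lower bound among the rest 63.6%, so the counting intervals did not touch. Cplx1 gave 19.2%, 20.7% and 21.8% of the complexin UMIs in libraries 1 to 3, 32.7%, 33.7% and 19.5% in libraries 4 to 6 and 42.0%, 44.3% and 59.7% in libraries 7 to 9. By point value library 6 was thus as low as libraries 1 to 3, but from only 17 UMIs of Cplx1 and 70 of Cplx2. With all cells kept, the share of Cplx1 in libraries 4 to 6 was 17%, 25.4% and 7.76%, and that of Sv2a 85.4%, 89.7% and 86.8%.

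The other pairs were steadier. Syn1 gave between 42.9% and 61.7% of the Syn1 and Syn2 UMIs in positive cells, and the intervals of libraries 4 to 6, at 42.9% to 44.7%, lay below those of libraries 1 to 3, at 56.6% to 60.3%. Over all cells libraries 4 to 6 were at 48.6%, 47.6% and 55.0%, and the intervals of libraries 4, 5 and 6 then reached those of library 1. Syp gave 64.7% to 78.8% of the Syp and Syngr1 UMIs in positive cells and 24.2% to 50% in other cells, without overlap. Amph gave 19.2% to 40.6% of the Amph and Bin1 UMIs in positive cells and 1.11% to 30.0% in other cells, ranges that overlapped, and 1.61% in microglia-like cells.

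**Figure D4:**
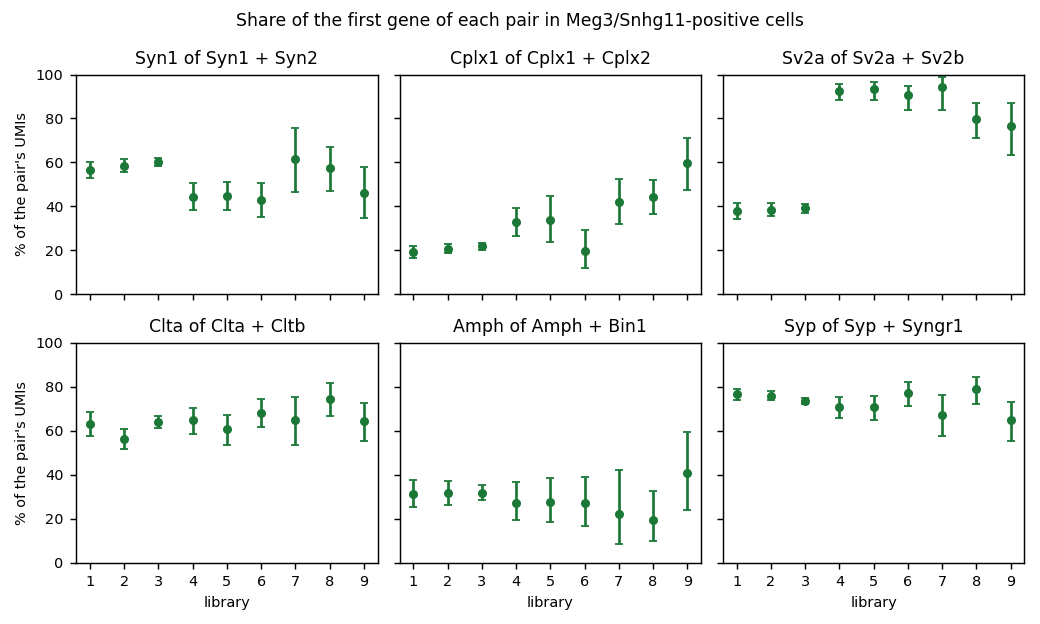
Share of the first gene among the UMIs of each paralog pair (vertical axes, percent) in Meg3/Snhg11-positive cells of the 9 libraries (horizontal axes), without the pituitary-like and Gh-led clusters, with 95% Clopper-Pearson intervals. The Sv2a share lies at 37.8% to 39.1% in libraries 1 to 3 and at 76.8% to 94.1% in libraries 4 to 9, whereas the Clta share stays between 56.4% and 74.6%.

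The Sv2 and complexin balances differed between cells sorted by their transmitter genes, a split chosen after seeing the data. Positive cells were sorted by at least 1 UMI of the vesicular glutamate transporters Slc17a7 or Slc17a6, or of the GABAergic genes Gad1, Gad2 or Slc32a1. Of 1838 cells with Slc17a7 alone, 372, 573 and 883 lay in libraries 1, 2 and 3, while no cell of libraries 4 to 6 was of this kind. A UMI of Slc17a7 was found in 68.5%, 67.3% and 80.9% of positive cells of libraries 1 to 3, with 1058, 911 and 1731 median UMIs. It was also found in 3.67%, 6.92% and 11.7% of their microglia-like cells, with 312, 328 and 671 median UMIs, and in 9.62% and 15.5% of the HbVC-like cells of libraries 1 and 2, with 370.5 and 316. A UMI of the GABAergic genes was found in 2.86% and 3.41% of positive cells of libraries 2 and 3, in 0.565% and 0.812% of other cells, with 362 and 713 median UMIs, and in 0.385% and 1.30% of microglia-like cells. At these depths the part of background UMIs in the sort was not tested. Sv2a gave 37.3% of the pair (35.6% to 39.0%) in Slc17a7 cells, 84.5% (78.2% to 89.5%) in the 232 cells with Slc17a6 alone and 91.5% (88.0% to 94.3%) in the 352 GABAergic cells. Within library 2 it was 37.2% in Slc17a7 cells and 92.6% in 20 GABAergic cells, and within library 3 it was 37.7% and 95.7% in 28 GABAergic cells. Library 1 had 17 GABAergic cells, under the minimum of 20 cells for this share. With cells sorted at 2 or more UMIs, which 0.0870% and 0.125% of other cells had of the GABAergic genes, it was 37.0% and 91.7% in 16 GABAergic cells of library 2 and 37.4% and 95.6% in 23 of library 3. In library 1 it was 36.0% and, in 12 GABAergic cells, 94.7%. The sets of 16 and 12 cells lay below the minimum of 20, which was not applied to this second sort. Cplx1 gave 20% of the complexin UMIs in Slc17a7 cells (18.8% to 21.2%), 47.3% (39.5% to 55.2%) in Slc17a6 cells and 51.5% (46.3% to 56.7%) in GABAergic cells. Within library 2 the Cplx1 share was 18.6% in Slc17a7 and 75.0% in GABAergic cells, and within library 3 it was 20.9% and 51.7%. The GABAergic cells of libraries 2 and 3 held only 14502 and 41654 UMIs of all genes. Shares within single libraries are printed here without intervals and can rest on few UMIs of the pair. Library 6, without any Slc17a7 cell, had a Cplx1 share of 19.5% over all positive cells, with 18.2% in 38 Slc17a6 cells and 45.0% in 42 GABAergic cells. The kinds were spread unevenly over the libraries, which the pooled shares do not take into account. Over all libraries, the sort at 2 or more UMIs gave a Sv2a share of 37.1%, 85.9% and 91.3% in 1204 Slc17a7, 66 Slc17a6 and 203 GABAergic cells, and a Cplx1 share of 20.4%, 51.1% and 57.5%. In pituitary endocrine-like cells Cplx1 gave only 2.24% (0.904% to 4.55%), from 7 UMIs of Cplx1 and 306 of Cplx2.

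Brainstem NS held 2 listed kinds of neurons, 55 cells called glutamatergic and 18 called other, and the list did not move as 1 block between them. Glutamatergic cells had 718 UMIs at the median and the other neurons 1106. The list took 1.11% (1.02% to 1.20%) of the UMIs of the former and 1.33% (1.20% to 1.47%) of those of the latter. Of 23 members 4 were at least 2-fold higher in the glutamatergic cells, beside 28.1% of the genes tested: Syt1, Sv2a, Sv2b and Syp. In the opposite direction 11 were at least 2-fold lower, beside 21.0% of the genes tested: Snap25, Syn2, Vamp2, Cplx2, Rab3a, Dnm1, Bin1, Ap2m1, Sncb, Ppp3ca and Napb. The glutamatergic label itself was mixed, since those cells carried 515 CPM of Slc17a6, 153 CPM of Slc17a7, 610.1 CPM of the inhibitory transporter Slc32a1 and 153 CPM of Gad1.

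The values parted by the kind of protein. Syp was at 2631 CPM (138 UMIs, 2211 to 3109) in glutamatergic and 645 CPM (19 UMIs, 388 to 1008) in the other neurons. Sv2a was at 1735 CPM (91 UMIs, 1397 to 2130.3) against 340 CPM (10 UMIs, 163 to 624), and Syt1 at 1106 CPM (58 UMIs) against 374 CPM (11 UMIs). These 3 genes had intervals apart, whereas Syngr1 at 629 against 340 CPM and Sv2b at 248 against 34.0 CPM did not. Snap25 was lower, at 953 CPM (50 UMIs, 708 to 1257) against 2241 CPM (66 UMIs, 1733 to 2851). Cplx2, at 153 against 849 CPM, and Ppp3ca and Sncb, at 229 and 286 CPM against 985 CPM for each, were also lower with intervals apart, as was Rab3a, at 209.7 against 645 CPM. Syp, Sv2a, Sv2b, Syngr1 and Syt1 encode proteins that are inserted into the membrane of the endoplasmic reticulum (ER) while they are made, as does Atp6v0c, which had no UMI here. The remaining 21 genes encode soluble or peripheral proteins, or, for Vamp2 and Stx1a, proteins inserted through their tail after synthesis. All 5 of the former were higher and all 21 of the latter lower in the glutamatergic cells, a grouping that was made after these values had been seen. These counts include genes of few UMIs. At a minimum of 10 UMIs in these cells, 5 of 5 of the former were higher and 18 of 18 of the latter lower, while of all 1368 genes at that minimum 50% were lower in the glutamatergic cells and 50% higher.

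The same division appeared in a comparison that did not use the listed types, between cells of neuron-like clusters below and above the rule of 2 Meg3 and Snhg11 UMIs. It shares cells with the comparison above in library 7, since only 4 of the 55 listed glutamatergic cells passed the rule, but not in libraries 8 and 9. Genes inserted at the ER were higher below the rule in 5 of 5, 4 of 5 and 5 of 5 cases in libraries 7, 8 and 9, and the rest were lower in 21, 19 and 19 of 21 cases. Intervals were apart for 4, 4 and 4 of the former and for 12, 8 and 3 of the latter, so that in libraries 8 and 9 most of the lower values rest on point values. At a minimum of 10 UMIs the rest were lower in 19 of 19, 18 of 20 and 17 of 19 cases, and the genes inserted at the ER kept their counts. Of all genes at that minimum, 35.2%, 30.2% and 33.8% were higher below the rule and 64.8%, 69.8% and 66.2% lower, so a lower level was the more frequent direction over all genes too. Syp was at 2820.1, 2650.4 and 2356 CPM below the rule and at 906, 946 and 523 CPM above it. Ppp3ca was at 102, 249 and 239 CPM below it and at 1033, 843 and 856 CPM above it. In all 3 libraries at least 2-fold higher were 3 of 25 members, Sv2a, Sv2b and Syp, beside 4.93% of the genes tested. At least 2-fold lower were 6 of 25, Syn1, Amph, Bin1, Ap2m1, Ppp3ca and Nsf, beside 14.1% of the genes tested. Cells below the rule were also shallower, with medians of 717, 645 and 816 UMIs against 1479, 1647 and 1740.0, and the part of depth in the division was not tested.

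**Figure D5:**
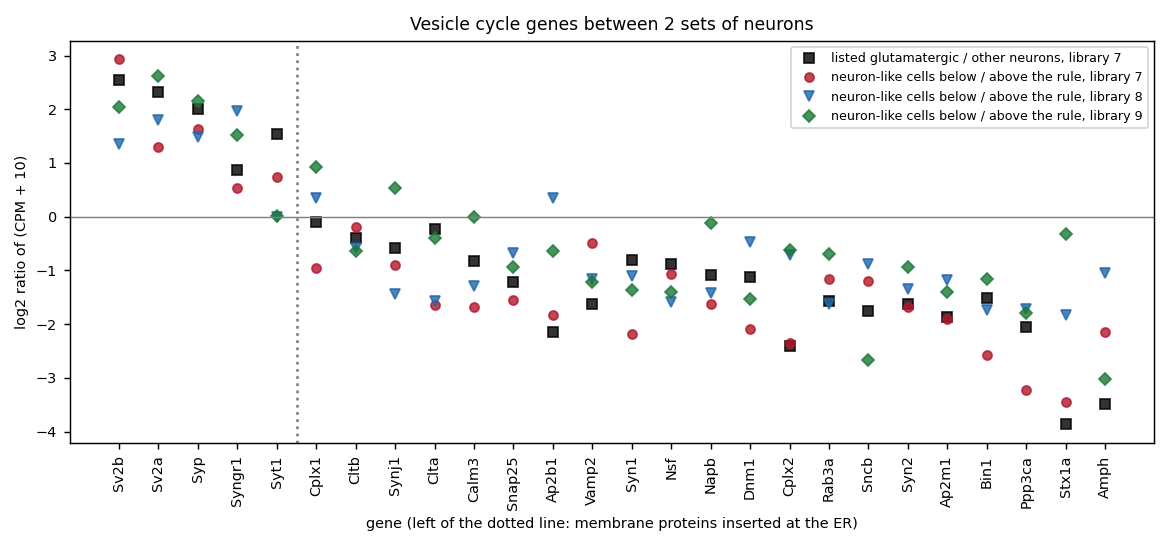
Ratio of the levels of 26 genes between sets of neurons, as log2 of the ratio of CPM + 10, where points above 0 are higher in listed glutamatergic than in other listed neurons (black squares, library 7) or in neuron-like cells below than above the rule (coloured points, libraries 7 to 9). Genes left of the dotted line are inserted at the ER and lie above 0 or, for Syt1 of libraries 8 and 9, near it, while the rest lie mostly below 0.

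The median folds of both sets of genes differed less in libraries 1 to 3. The median fold, below against above the rule, was 1.74, 1.46 and 1.11 there for genes inserted at the ER and 0.646, 0.778 and 0.730 for the others, against 2.46, 2.78 and 4.12 and 0.312, 0.440 and 0.523 in libraries 7 to 9. In libraries 1, 2 and 3, with 78, 74 and 26 neuron-like cells below the rule, 5, 5 and 4 of 6 genes inserted at the ER were higher and 19, 17 and 14 of the 21 others lower. Intervals were apart for only 2, 2 and 1 of the former and 3, 1 and 3 of the latter. At a minimum of 10 UMIs the former were 4 of 5, 5 of 5 and 4 of 5 and the latter unchanged, and over all genes 34.4%, 38.6% and 31.5% were higher and 65.6%, 61.4% and 68.5% lower. In library 3 the 14 of 21 others that were lower thus did not exceed the share over all genes, so that side of the division was not seen there. In library 5, with 20 such cells, 2 of 5 were higher and 14 of 21 others lower, beside 43.3% higher and 56.7% lower over all genes, so it was not seen there. Libraries 4 and 6 had too few such cells.

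Per cell, the list was found in nearly all positive cells of libraries 1 to 3 and less often in the rest, but positive cells were not the same kind of cells in each library. Of the positive cells outside the pituitary-like and Gh-led clusters, 521 of 558, 790 of 875 and 1023 of 1144 lay in neuron-like clusters in libraries 1 to 3. These were 320 of 613, 399 of 629 and 176 of 431 in libraries 4 to 6, and 35 of 123, 72 of 152 and 64 of 183 in libraries 7 to 9, so that in libraries 6 to 9 most positive cells were not neuron-like. Each cell was thinned to 500 UMIs, and shallower cells were left out. Of positive cells without the pituitary-like and Gh-led clusters, 99.6%, 99.3%, 98.9%, 80.0%, 82.6%, 72.2%, 69.1%, 82.4% and 71.6% in libraries 1 to 9 had at least 1 UMI of the list, with a median of 7, 8, 7, 2, 3, 1, 1, 2 and 1 listed genes per cell. Between 50.6% and 64.3% of other cells did so at the same depth, with a median of 1 gene in every library, and 39.9% to 56.2% of positive cells in the pituitary-like and Gh-led clusters. Snap25 was found in 63.4%, 75.3%, 70.5%, 26.8%, 27.2%, 16.7%, 17.9%, 23.6% and 24.0% of positive cells and in 0.856% to 8.99% of other cells, without overlap. Clta was found in 6.56% to 16.2% of positive cells and in 8.16% to 14.2% of other cells, so the groups overlapped. Without thinning the positive cells had at least 1 listed UMI in 86.2% to 99.6% of cases. Thinning left out 110, 192, 57, 250 and 4 positive cells of libraries 1, 2, 4, 5 and 8 and none of the other libraries. It left out 1624 of 2016 and 1843 of 2299 other cells in libraries 1 and 2, 732 of 1055 in library 5, and 210, 26 and 406 in libraries 4, 7 and 8.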

How the data were processed

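Single-cell suspensions made with papain were loaded on the 10x Genomics Chromium (v2 chemistry, 3′ ends). Per the labels and the methods of the study, the authors deposited UMI counts per gene and cell, made with Cell Ranger 2.2.0 on GRCm38 (filtered output, not normalized); the annotation release is not given in the sources used here. Molecules were counted near the 3′ end, so levels do not scale with transcript length, and reads shared with near-identical copies, such as processed copies of Atp6v0c, may be lost.

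No further filter was set on cells. UMIs were summed over cells of a library, class or type and scaled to CPM, and folds were taken after adding 10 CPM. Genes with at least 200 UMIs over all cells entered the comparisons, or 20 over all listed cells, so genes high in 1 group could pass through that group. Clusters were made without the listed genes (scaling to 10000, log, 2000 variable genes, 13 components, 20 neighbours, Leiden resolution 1) and named where at least 3 fixed markers were found. Scrublet called 143 cells (0.484%) doublets, too few to count as working, so doublets were in effect kept. The named genes were all 27 listed ones and, of the other pathway genes, at most 10 called in every library and at most 5 lower in every library. Members and lists were chosen with earlier results of these data known; the transmitter split, the grouping by insertion at the ER, the comparison of neuron-like cells below and above the rule, and the exclusion of pituitary-like and Gh-led clusters were chosen after seeing the data. Alternatives changed the neuron rule, the cells, the totals, the pseudocount, the minimum, the thinning and the clustering. Scripts were tested on simulated data. Python 3.11.15, numpy 2.4.6, scipy 1.17.1, scanpy 1.11.5 and leidenalg 0.10.2 were used.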

Additional observations from a re-analysis of the deposited data

How the results depend on the processing

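No paired analysis was possible because, between sleep groups, each region had 1 library and the labels give no replicate numbers; positive and other cells were compared within each library, with no test. The count of members called in all 9 libraries was 8, beside 0.561% of all genes tested. It was 16 with Snhg11 alone (3.56% of all genes), 5 among cells of at least 1000 UMIs (0.303%), 14 without the pituitary-like and Gh-led clusters (3.20%), 21 with neuron-like clusters in place of the rule (8.48%) and 15 without libraries 4, 5 and 6 (5.19%). The count of other pathway genes was 5. It was 20 with Snhg11 alone, 1 among cells of at least 1000 UMIs, 22 without the pituitary-like and Gh-led clusters and 25 without libraries 4, 5 and 6, and it was not run with neuron-like clusters. It was also 3 with a rule of 3 UMIs (0.392%), 10 without pituitary-like clusters alone (1.20%), 15 with a pseudocount of 1 CPM (2.23%), 3 with a minimum of 50 CPM (1.65%), 12 with totals that leave out mitochondrial, hemoglobin and hormone genes (1.60%), and 13 without library 6 (1.70%).

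The median share of the list per library, 0.249%, was 0.382% with those totals, 0.215% among cells of at least 1000 UMIs, 0.279% as a mean over cells and 0.430% without the pituitary-like and Gh-led clusters. Over all positive cells the Cplx1 share of 21.5% was 22.5% without pituitary-like clusters, 23.1% without Gh-led cells too and 23.1% among cells of at least 1000 UMIs; the Sv2a share of 48.6% was 47.2%, 46.7% and 46.2%. The Clta share of 59.6% was 61.5% and 63.4% without those clusters, and among cells of at least 1000 UMIs the Amph share of 31.6% was 34.9% and the Syp share of 75.1% was 77.0%. The median share of positive cells with a listed UMI, 82.4%, was 92.8% unthinned and 90.7% at 1000 UMIs. The count in listed brainstem NS neurons was 18 under every alternative, and 21 or 22 genes peaked in the neuron-like class. Leaving out the pituitary-like and Gh-led clusters moved folds of single libraries from below 1 to above it, for Calm3 in libraries 4 and 5 (0.619 and 0.726 to 1.39 and 1.51), Synj1 in libraries 4 and 6 (0.944 and 0.586 to 2.17 and 1.46), Bin1 in library 4 (0.755 to 1.53), Ap2m1 in libraries 4 to 6 (0.861, 0.991 and 0.868 to 1.64, 1.62 and 1.38), Ap2b1 in library 6 (0.943 to 1.47), Clta in library 5 (0.719 to 1.07), Cltb in libraries 5 and 6 (0.93 and 0.958 to 1.28 and 1.11) and Ppp3ca in library 6 (0.985 to 2.04). The cause of these moves was not tested. With cells sorted at 2 UMIs of transmitter genes the Cplx1 share of GABAergic cells, 51.5%, was 57.5%. Settings with that sort, without libraries or without the Gh-led cluster, and neuron-like clusters in place of the rule, were added after seeing the data.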
